A study of Mus musculus with 4 samples.

Results

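The FOXP and FOXO forkhead genes were taken here as 6 mouse genes: Foxp1, Foxp2, Foxp3, Foxp4, Foxo1 and Foxo3. Each gene was followed over a window of its gene body in GENCODE M21 (GRCm38/mm10) plus 50 kb on each side. Every row of the deposited peak lists that overlapped a window was kept, which gave 618 of 338461 rows. ATAC-seq, in which a transposase cuts accessible DNA, was run on primary T-helper 17 (Th17) cells of mouse strain C57BL/6NJ. The labels give 1 group of 4 biological replicates, state no genotype, agent or control group, and leave age and stage unknown. All 4 replicates carry the same donor identifier. Separate animals or cultures are not named, so the spread over replicates given below may be technical. The peak names also hold the words 72hrs and ASTARR.insert, which the labels do not explain, so the time point and the kind of insert sequenced are uncertain beyond the label ATAC-seq.

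Forkhead proteins bind DNA through a winged-helix domain. FOXP proteins mostly repress transcription and pair through a leucine zipper: FOXP3 is the defining factor of regulatory T cells, FOXP1 keeps naive T cells quiescent, FOXP2 is best known from the brain and lung, and FOXP4 from the lung and from recall responses of T cells. FOXO1 and FOXO3 are activators that AKT phosphorylation sends out of the nucleus, and in T cells FOXO1 drives genes of homing and survival such as Klf2 and Il7r and restrains the Th17 programme.

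Regions of the 4 lists that overlapped by at least 1 bp were merged, and a merged region that held a region of every replicate is called shared. The deposited signal is the authors' enrichment value for a peak and is not normalised between replicates. It is therefore given also as a percentile among the 68696 shared regions of the genome within each replicate, where 100 would be the strongest. Sequencing depth is unknown because the lists hold no counts, so precision is given by the SD over the 4 replicates and no counting interval is given. The cells were measured in bulk, so a region open in few cells cannot be told apart from one open weakly in many. The labelled cell type was checked at marker promoters: 8 of 8 Th17 genes and 5 of 6 T-cell genes were open in all 4 replicates, against 0 of 5 B-cell, 1 of 5 myeloid (Cd14) and 2 of 5 CD8 or NK genes (Cd8b1 and Prf1), beside 62.2% of all protein-coding genes. Of 7 markers of regulatory T cells (Treg) 6 were open as well, all but Foxp3. The share of open markers thus does not tell Th17 cells from Treg cells.

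The sequences below, read from the GRCm38.p6 genome on the plus strand, are the 121 bases around the median summit of the regions on which the results turn. The first set is the region of highest signal at each of 5 genes. At Foxp3 the region of highest signal lies in an untranslated exon and its sequence is not shown, so the set has instead the intronic region in the place of the conserved non-coding sequence CNS1. Capitals mark matches on either strand to any of 11 consensus strings, which are forkhead TGTTTAC, AP-1 TGANTCA, RUNX TGTGGT, ETS GGAAGT, NFAT TGGAAA, STAT TTCNNNGAA, ROR AGGTCA, NF-kB GGANTTTCC, CRE TGACGTCA, TCF CTTTGAA and CTCF core AGGNGGC. The capitals are letter matches, not measured binding.
Foxp1 intergenic region past the gene end (RUNX and AP-1 strings), chr6:98901333-98901453: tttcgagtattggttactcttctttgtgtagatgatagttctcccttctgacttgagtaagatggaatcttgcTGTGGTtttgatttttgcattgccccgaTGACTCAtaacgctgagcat
Foxp2 intergenic region past the gene end (AP-1 string, then ROR and STAT strings that overlap), chr6:15451454-15451574: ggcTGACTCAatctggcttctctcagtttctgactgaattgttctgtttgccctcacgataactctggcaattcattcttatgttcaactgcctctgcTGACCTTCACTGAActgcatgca
Foxp3 CNS1 region (NFAT and ROR strings), chrX:7581809-7581929: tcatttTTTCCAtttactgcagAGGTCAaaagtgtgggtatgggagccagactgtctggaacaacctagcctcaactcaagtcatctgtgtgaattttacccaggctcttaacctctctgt
Foxp4 upstream region (forkhead string), chr17:47943189-47943309: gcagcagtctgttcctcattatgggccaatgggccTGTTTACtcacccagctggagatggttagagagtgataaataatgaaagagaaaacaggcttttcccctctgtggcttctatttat
Foxo1 intergenic region past the gene end (ROR string), chr3:52369283-52369403: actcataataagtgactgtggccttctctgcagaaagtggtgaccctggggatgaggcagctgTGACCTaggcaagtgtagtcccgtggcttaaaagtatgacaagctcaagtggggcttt
Foxo3 intronic region (RUNX string), chr10:42261865-42261985: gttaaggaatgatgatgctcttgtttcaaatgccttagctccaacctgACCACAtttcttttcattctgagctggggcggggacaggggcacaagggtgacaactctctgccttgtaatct

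The second set is the other 3 regions with a forkhead string within 50 bp of the summit, shown because the members themselves encode proteins that bind such sites.
Foxp1 intron (CTCF core, forkhead and AP-1 strings), chr6:99013581-99013701: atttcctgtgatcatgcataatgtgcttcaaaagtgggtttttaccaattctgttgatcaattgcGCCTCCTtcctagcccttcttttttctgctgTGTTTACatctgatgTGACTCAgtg
Foxp1 intron (NFAT string on both strands, then forkhead), chr6:99261413-99261533: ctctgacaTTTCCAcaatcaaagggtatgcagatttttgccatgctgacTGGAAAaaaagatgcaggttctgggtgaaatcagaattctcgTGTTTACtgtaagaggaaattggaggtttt
Foxp4 upstream region (AP-1, forkhead and STAT strings), chr17:47958523-47958643: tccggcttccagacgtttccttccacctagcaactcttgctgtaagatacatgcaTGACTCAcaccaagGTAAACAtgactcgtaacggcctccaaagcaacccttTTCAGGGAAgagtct

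The last sequence, from the RefSeq promoter table on GRCm38.p6, is the stretch just before the first exon at the Foxp3 promoter, where no replicate had a summit. It holds none of the 11 strings.
Foxp3 promoter, chrX:7579426-7579566, plus strand: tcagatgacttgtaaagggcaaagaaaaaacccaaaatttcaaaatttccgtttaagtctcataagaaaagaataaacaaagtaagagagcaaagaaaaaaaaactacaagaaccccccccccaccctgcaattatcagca

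The 6 windows held 157, 150, 148 and 163 regions in replicates 1 to 4, or 154.5 ± 6.86 (SD, n = 4). They merged into 189 regions, of which 122 (64.6%) were shared, beside 68.0% of the 101015 merged regions of the whole genome. A further 10 regions came from 3 replicates, 16 from 2 and 41 from a single replicate. The peak names carry 1 library tag in replicates 1 and 2 and another in replicates 3 and 4, and 3 regions were found in replicates 1 and 2 alone and 6 in replicates 3 and 4 alone. By the position of the summit, 85 of the 122 shared regions lay in an intron of the member gene, 2 in a member's exon and 5 within 1 kb of a member's transcription start site (TSS). Another 22 were intergenic, and 8 lay at promoters or in bodies of other genes. Their median width was 893.5 bp, beside 888 bp over all shared regions. Their median signal percentile was 34.7, with 9 above percentile 90 and 16 below 10. By window the median was 33.4 at Foxp1, 35.5 at Foxp2, 72.2 at Foxp3, 52.6 at Foxp4, 18.7 at Foxo1 and 42.8 at Foxo3, so the pooled value follows Foxp1 and Foxo1, which held the most regions.

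Density separated the genes. Foxo1 had 10.8 shared regions per 100 kb of window and Foxp1 10.2, Foxp4 had 8.89, Foxp3 4.93, Foxo3 4.10 and Foxp2 0.468. Over 21938 protein-coding genes the median was 5.21, with quartiles of 1.74 and 8.28. Foxo1, Foxp1 and Foxp4 thus stood at percentiles 90.3, 87.2 and 79.9 of coding genes, Foxp3 and Foxo3 near the middle at 48.0 and 41.2, and Foxp2 at 17.9. Counted per replicate, Foxo1 (12.98 to 14.1 per 100 kb) and Foxp1 (12.6 to 13.6) overlapped, as did Foxp3 (4.93 to 9.05) and Foxo3 (4.62 to 6.67). Foxp4 (9.52 to 10.2) lay below both leaders and above Foxp3 and Foxo3 in every replicate, and Foxp2 had the same 3 regions in each. The order depended on the flanks. Over the gene body alone Foxo1 had 14.1 shared regions per 100 kb, Foxp3 13.9 (from 3 regions) and Foxp4 12.2. Foxp1 had 11.0 by this measure, Foxo3 7.38 and Foxp2 0.185.

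**Figure D1:**
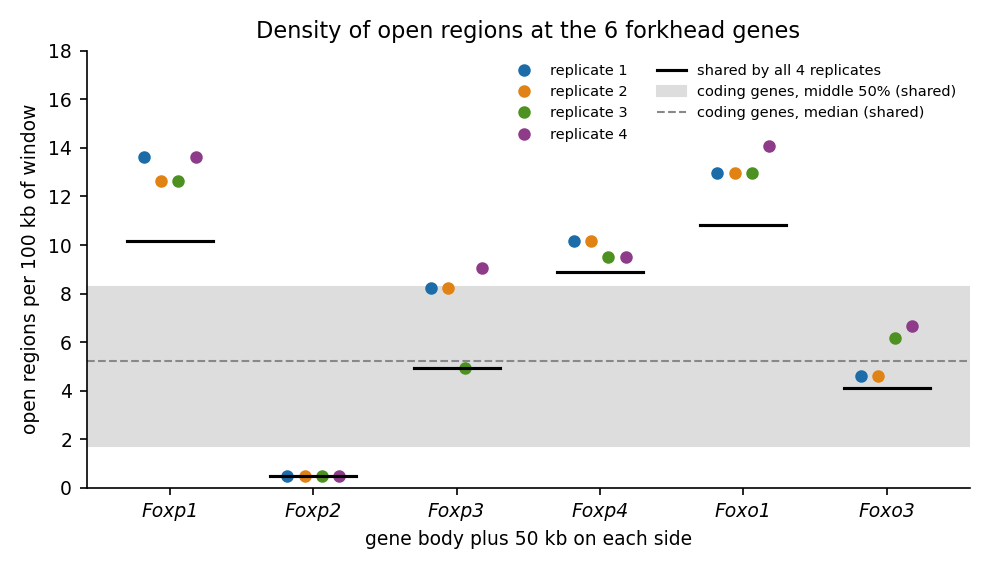
Open regions per 100 kb of window (y axis) at each gene (x axis); points are the 4 replicates, black bars the shared regions, and the grey band and dashed line the middle range and median of shared regions over all protein-coding genes. Foxo1, Foxp1 and Foxp4 lie above the band, Foxp2 below it.

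The promoters of 5 of the 6 genes were open, that is, every replicate listed its own region no more than 1 kb from an annotated TSS. Over all protein-coding genes 62.2% were open. The exception was Foxp3, open in replicate 4 only, which joined the others with windows of 2 kb or with merged regions. At Foxp4 the promoter region (chr17:47923199-47925564) had signals of 8.64, 8.45, 9.21 and 8.32 in replicates 1 to 4, at percentile 60.6 ± 4.45. At Foxo3 (chr10:42274824-42278625) they were 7.73, 8.07, 6.67 and 7.201, at percentile 50.8 ± 3.45. At the first start of Foxp1 (chr6:99520557-99523526) they were 8.15, 6.04, 6.68 and 6.71, at percentile 46.0 ± 8.55. These 3 promoters were of middling rank by signal. At Foxp2 (chr6:14900156-14902390) the signals were 5.64, 5.47, 5.85 and 6.16, at percentile 35.5 ± 4.22. At Foxo1 (chr3:52267678-52271996) replicates 3 and 4 each listed 1 long region with signals of 5.204 and 5.149. Replicates 1 and 2 split it, and their part at the TSS had 4.59 and 4.17. The whole Foxo1 region, ranked by its strongest row in each replicate, stood at percentile 32.3 ± 2.92, below Foxp4, Foxo3 and Foxp1 in every replicate. Its median summit (within chr3:52271560-52271680) lay in an intron, more than 1 kb from the TSS. This rank is thus not that of the TSS itself. The Foxo1 promoter was lost when each list was limited to its 50000 regions of highest signal.

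Regions at the open promoters were wide, though at Foxp1 not at every open start. In each of the 5 windows a region at an open promoter was the widest shared region of the window, at Foxp1 that of the most upstream start. Its widest row measured 2851 ± 127 bp at Foxp1, 2066 ± 137 bp at Foxp2, 2325 ± 61.0 bp at Foxp4 and 3577 ± 126 bp at Foxo3. At Foxo1 it measured 1988 and 2084 bp in replicates 1 and 2 and 4299 and 4295 bp in replicates 3 and 4. Over the genome, 13583 shared regions that reached a coding promoter had a median width of 1319 bp (quartiles 1024 and 1657) and the other 55113 a median of 658 bp. All 5 were thus wider than the upper quartile of promoter regions. The other shared regions at open Foxp1 starts measured 1104 ± 40.6, 953 ± 9.14 and 921 ± 494 bp, each mean below the median of promoter regions. The last of these had its median summit in an intron. Its strongest row reached a start window in replicate 4 alone, where it measured 1644 bp. The rank of the promoter regions depended on the deposited value used. By -log10 q the promoter regions stood at percentile 91.7 ± 1.16 at Foxo3, 86.8 ± 1.36 at Foxo1 and 86.0 ± 3.00 at Foxp4. These lay well above their ranks by signal. The region of the most upstream Foxp1 start stood at 55.5 ± 6.98 and that of Foxp2 at 28.1 ± 5.25. The Foxo1 value is that of the strongest row of the whole region, which need not be the row at the TSS.

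The CpG content of promoters was measured as the ratio of observed to expected CpG in RefSeq promoter sequences of 250 bases before to 50 after a start, and genes were placed in 5 groups of near-equal size by their highest ratio. Foxp1 (1.11), Foxo1 (1.10) and Foxp4 (0.940) were in the group richest in CpG, in which 95.5% of genes had an open promoter, and Foxo3 (0.834) was in the next, with 93.8%. Foxp3 had a ratio of 0.497 and was in the middle group, in which 81.5% were open. Its ratio lay just above the lower limit of that group, 0.484, and in the next group down 37.7% were open. Its second RefSeq start, with a ratio of 0.470, would fall there. The main Foxp3 start had 6 CpG in the 300 bases, beside 31 to 44 at the CpG-richest start of each of the other 4 genes. At Foxp1 that was the start at 99028298. Its most upstream RefSeq start had 13 CpG and a ratio of 0.499, close to that of Foxp3. The Foxp1 start at 99266515 had 5 CpG and a ratio of 0.282. Both of these Foxp1 starts were open in all 4 replicates, so a low ratio did not by itself go with a closed start. Foxp2 had no sequence in the promoter table.

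Foxp1 was the gene with the most open regions, with 95, 88, 88 and 95 in replicates 1 to 4. Its 71 shared regions were spread over the window of 697 kb (gene body chr6:98925338-99522721, minus strand), and 66 of them overlapped the gene body. In steps of 100 kb from the start of the gene model, 8, 17, 13, 9, 10 and 9 shared regions had their summit in the body, so no step was empty. The longest stretch of the window without a shared region was 41.2 kb, upstream of the gene. None of the 66 protein-coding genes with a body within 10% of its length had more shared regions per 100 kb, and their median was 0.775. The most like in regions per 100 kb across the 4 replicates were Rabgap1l, a Rab GTPase-activating protein gene (46 shared regions, Euclidean distance 8.43), and Lpp, a LIM-domain protein gene (50 shared regions, distance 8.84), both still sparser.

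Of the 5 groups of annotated Foxp1 starts, each defined by starts whose windows of 1 kb on each side meet, 3 were open in all 4 replicates. The most upstream start (99520997) is the wide promoter region described above. The start at 99266515 had a weak region, with signals of 2.69, 2.95, 2.84 and 2.84 at percentile 4.28 ± 0.837. The group at 99028259 reached 2 shared regions. The stronger, at percentile 40.3 ± 1.82, had its median summit in an intron, 1947 bp from the start. Its strongest row reached the 1 kb window in replicate 4 alone, with a signal of 6.08. In replicates 1 to 3 the strongest row in that window, with 4.87, 4.83 and 4.33, was of the weaker region. The other, with its median summit within 1 kb of the start, stood at percentile 19.8 ± 6.58. The start of 3 transcripts at 99435345 had a region in replicate 3 alone, with a signal of 2.15, and the start of 5 transcripts at 99163018 had none in any replicate. Open chromatin at Foxp1 starts was thus uneven. By signal the region of the most upstream start and the intronic region of the group at 99028259 overlapped over replicates (35.7 to 56.6 and 38.7 to 42.3). The region nearer that group's start was below the most upstream one in every replicate (10.3 to 25.1). By -log10 q the intronic region was above the most upstream one in each replicate, with 112, 134, 115 and 114 against 72.6, 40.7, 60.8 and 59.2. The region nearer the start had 78.8, 84.9, 75.5 and 44.7, which was higher in replicates 1 to 3 and lower in replicate 4.

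The strongest Foxp1 regions lay outside the gene, past its end. The first, 23945 bp past the end (chr6:98901023-98901864), had signals of 16.0, 17.3, 16.7 and 16.5, at percentile 97.5 ± 1.29. The next, 36444 bp past the end, had 17.6, 17.2, 13.4 and 16.0 (95.7 ± 4.03), and a further one 46923 bp past the end had 15.1, 16.4, 13.6 and 15.2 (93.6 ± 2.38). The first stood above the last of these in every replicate, and the range of the other overlapped both. Ranked by the deposited -log10 q instead, these 3 fell to places 18 to 20 of 71. The intronic regions chr6:99274116-99275346 and chr6:99056640-99057924 then came first, with -log10 q of 694, 705, 726 and 676 and of 661, 685, 678 and 614 in replicates 1 to 4, at percentiles 99.7 ± 0.0459 and 99.5 ± 0.0176. Their signals stood at percentiles 81.6 ± 1.36 and 90.1 ± 0.947, so they were high by either value, and no string of the 11 lay within 50 bp of their summits.

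Foxp2 was the opposite at a similar length (gene body chr6:14901349-15441977, plus strand). Each replicate had exactly 3 regions in a window of 641 kb, and all 3 were shared. The promoter region ended at 14902390, and no region of any replicate followed for 549 kb, up to 15451104. The 2 later groups of Foxp2 starts, at 15184647 to 15185506 and at 15196951 to 15196964, lie in that stretch and were closed in all replicates. The strongest region, 9537 bp past the gene end, had signals of 13.1, 12.7, 12.2 and 15.4, at percentile 87.0 ± 6.09. The last, 17960 bp past the end, had 3.17, 4.25, 6.76 and 4.81, at percentile 24.0 ± 17.2. Its rank varied the most between replicates of the 3. Sparse windows were common at this gene length: 50 of 82 coding genes within 10% of the Foxp2 body length were denser and 32 sparser, with a median of 0.884 shared regions per 100 kb. Cpne4, a copine gene, and Pkhd1, the fibrocystin gene, were most like Foxp2, with distances of 0.190 and 0.195.

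**Figure D2:**
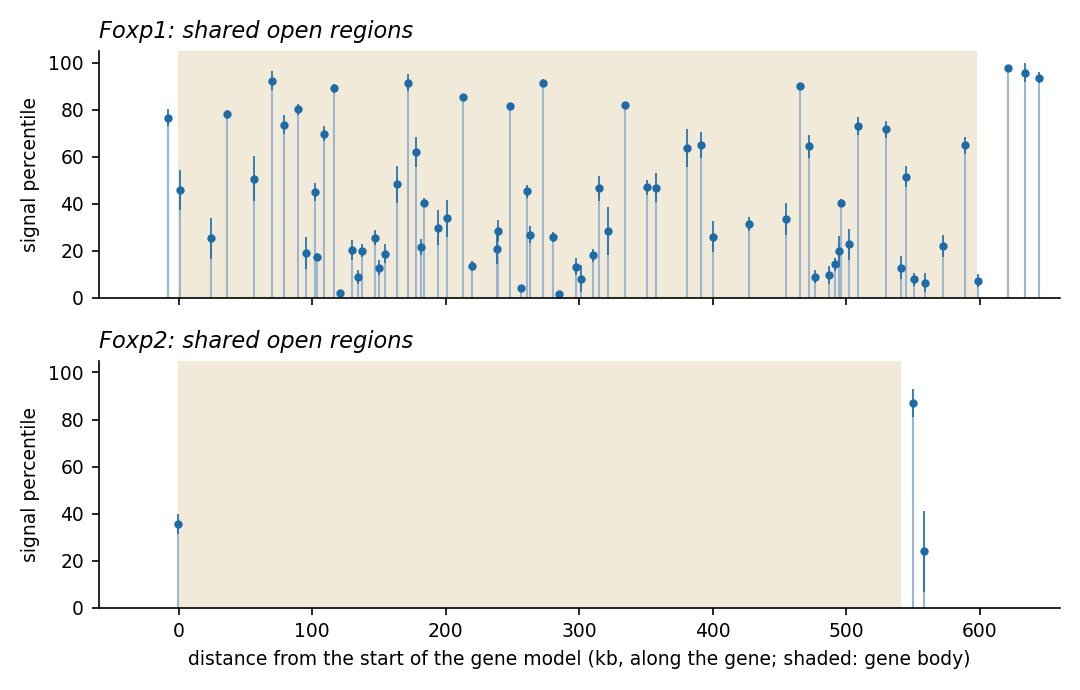
Signal percentile among shared regions (y axis, mean and SD over 4 replicates) of each shared region at Foxp1 (top) and Foxp2 (bottom) against the distance of its summit from the start of the gene model in kb (x axis), with gene bodies shaded. Regions stand along the whole body of Foxp1, while the body of Foxp2 is empty after the promoter.

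At Foxp3 (gene model chrX:7573644-7595245, plus strand) the promoter and the conserved elements were read separately. Distances are from the main TSS at 7579676, where the 5′ non-coding exon starts. The promoter (1 kb on each side of that TSS) had a region in 0 of 4 replicates. CNS1, the intronic enhancer that responds to TGF-β in induced regulatory T cells, was placed from 1.5 to 3 kb and had a region in all 4. CNS2, the CpG-rich element that keeps Foxp3 expression stable (3.7 to 5.2 kb), and CNS3, the element of early Foxp3 induction (6.3 to 7.8 kb), had none in any replicate. The places of the elements come from general knowledge of the locus, and the CNS3 window here spans the first coding exon, which runs from 6597 to 6885 bp after the TSS. The CNS2 window held 21 CpG and the CNS1 window, of the same length, 9. Their ratios of observed to expected CpG were 0.243 and 0.135. The ratio was 0.225 in the promoter window, 0.142 in CNS3 and 0.288 in CNS0, the upstream element described below. The CNS2 window thus did not stand out from all the others by this ratio. Of the promoter and the intronic elements, CNS1 was the only one with an open region in these lists.

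The CNS1 region (chrX:7581444-7582417) had signals of 9.20, 12.3, 9.99 and 10.1 and stood at percentile 71.8 ± 6.54. Its summits lay 2176, 2245, 2210 and 2176 bp after the TSS, within 69 bp of each other. Replicate 4 listed it from 1768 bp after the TSS and the others from 1840 to 1864 bp. That edge is what reached the window of a second annotated start, 807 bp downstream of the main one, in replicate 4 alone. The Foxp3 promoter counted as open in replicate 4 for this edge, and no replicate had a summit within 1 kb of any Foxp3 start of the basic annotation.

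CNS0, an upstream element (7 to 9.5 kb before the TSS), was touched only at its edge. The overlap was 0, 7, 7 and 62 bp in replicates 1 to 4. A summit lay inside in replicate 4 alone, in a region with a signal of 1.73. The region that touched it (chrX:7572615-7575144) had its main part at the promoters of Ppp1r3f and Flicr. Ppp1r3f is a phosphatase subunit gene on the other strand. Flicr is an RNA gene on the same strand as Foxp3, although its annotated type is antisense. The signals of the region, 11.2, 10.7, 10.3 and 9.86, stood at percentile 72.8 ± 2.63. A further Foxp3 transcript starts in this region at 7573644 but only in the comprehensive GENCODE annotation, and with that annotation the Foxp3 promoter was open in 4 replicates.

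The region of highest signal in the Foxp3 window lay at the other end of the gene (chrX:7593101-7593708), in the 3′ untranslated part of the last exon of 5 of 8 transcripts. Its signals were 15.4, 16.1, 15.5 and 16.0, and its percentile was 95.8 ± 1.61. Its summits, 13725 to 13780 bp after the TSS, lay within 55 bp of each other, and strings for AP-1 and TCF lay within 50 bp of the median summit. Its percentile was above that of CNS1 in every replicate. By -log10 q it came second, with 130.1, 131, 151 and 135, and the region at Ppp1r3f and Flicr came first, with 299, 275, 313 and 253. The other shared regions of the window were at the promoters of Ccdc22, a gene of endosomal sorting and NF-kB control (72.6 ± 4.72), and Syp, the synaptophysin gene (63.8 ± 8.40), and inside Ppp1r3f (24.4 ± 3.62). The window had 10, 10, 6 and 11 regions in replicates 1 to 4. Replicate 3 was low in part because it listed 1 row where the others listed 2 or 3 inside Ppp1r3f.

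**Figure D3:**
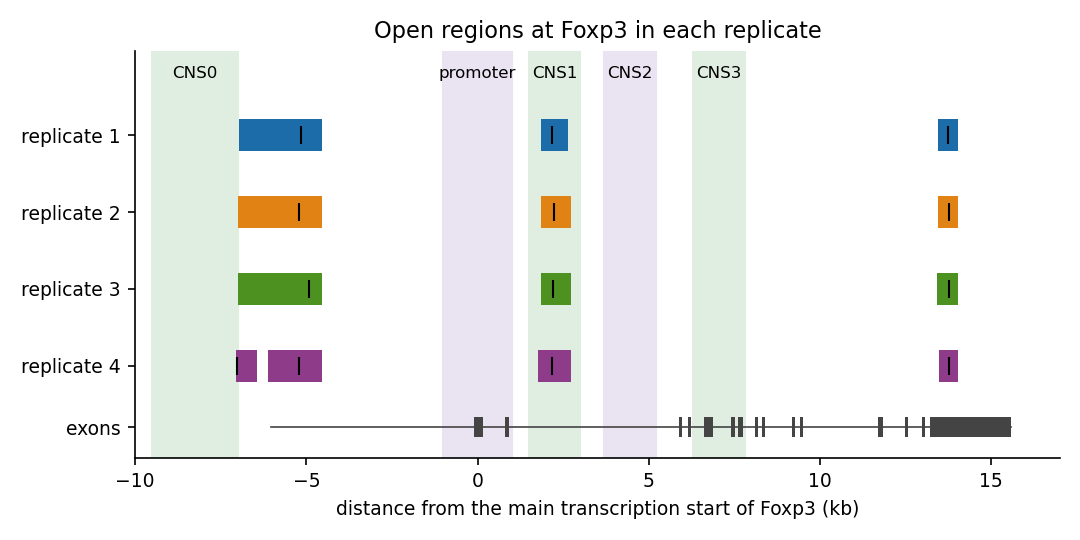
Regions listed in each replicate at Foxp3 (rows, with black ticks at summits) against the distance from the main TSS in kb (x axis). Element windows are shaded, and exons of the Foxp3 transcripts of the basic annotation are drawn below. All 4 replicates have regions in CNS1, around 5 kb upstream and in the last exon, and none in the promoter, CNS2 or CNS3 windows.

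Foxp4 (gene body chr17:47867133-47924645, minus strand) had 16, 16, 15 and 15 regions and 14 shared. Its strongest region lay 18604 bp upstream of the gene (chr17:47942994-47943893), with signals of 12.9, 13.5, 13.0 and 12.9 at percentile 86.4 ± 1.52. This region holds a forkhead string, as does another 33938 bp upstream (62.2 ± 8.55). A region 24942 bp past the gene end (84.7 ± 4.36) and an intronic one (83.4 ± 3.38) were of similar rank, and the percentiles of all 3 leaders overlapped between replicates. By -log10 q the promoter region came first, with 181, 184, 273 and 199. The neighbouring promoter of Mdfi, an inhibitor of myogenic factors, was open in all replicates at percentile 29.6 ± 4.52, lower than the Foxp4 promoter in each. Genes most like Foxp4 were Sacm1l, a phosphoinositide phosphatase gene (distance 0.584), and Mindy2, a deubiquitinase gene (0.597).

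Foxo1 (gene body chr3:52268336-52353221, plus strand) combined many regions with low signal. It had 24, 24, 24 and 26 regions and 20 shared, of which 12 overlapped the gene body, or 14.1 per 100 kb of body. The median percentile of the 20 was 18.7, the lowest of the 6 windows, and with the 50000 regions of highest signal per list 6 were left as shared, beside 34 at Foxp1 and 9 at Foxp4. The strongest lay 16122 bp past the gene end (chr3:52369005-52370390), with signals of 16.2, 16.0, 15.1 and 14.1 at percentile 94.5 ± 2.04. It also led by -log10 q, with 358, 363, 322 and 285. The next, 48073 bp past the end, had 11.8, 13.2, 11.3 and 11.9 (81.2 ± 2.27), below the first in every replicate. Only 30 of 646 coding genes of like body length had more shared regions per 100 kb than Foxo1. Elf2, an ETS factor gene (distance 0.912), and Top1, the topoisomerase I gene (0.970), were most like it.

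Foxo3 (gene body chr10:42181841-42276755, minus strand) was sparser than Foxo1, with 9, 9, 12 and 13 regions and 8 shared. The lists of replicates 1 and 2 were shorter here than those of replicates 3 and 4, which carry the other library tag. The part of the tag in this was not tested. The 61.1 kb at the end of the gene and beyond it held no region in any replicate. The strongest region was in an intron, 14771 bp from the nearest TSS (chr10:42261057-42262267). Its signals of 8.90, 12.2, 8.83 and 11.4 gave percentiles of 62.1, 79.4, 64.2 and 79.0, or 71.2 ± 9.32. That was the lowest leading percentile of the 6 genes, and it was split between replicates 1 and 3 and replicates 2 and 4. By -log10 q the promoter region led, with 282, 308, 269.9 and 279.97. Of 620 coding genes of like body length 381 were denser, and Aatf (distance 0.834) and Mypn (0.895) were most like it.

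At the 5 genes with an open promoter the region of highest signal was another one than the promoter region. In 4 of these genes they lay outside the gene body, and at Foxo3 in an intron. The gap in mean percentile was widest at Foxo1 (94.5 against 32.3, the latter for a region with its median summit in an intron). It was narrowest at Foxo3 (71.2 against 50.8). Since the regions were picked by signal, this order is set by the choice. By -log10 q the order turned at Foxo3 (64.8 ± 8.20 against 91.7 at the promoter) and at Foxp4 (78.9 ± 1.01 against 86.0), where the promoter region came first. At Foxp1 the promoter taken here was the most upstream start. The intronic region reached by its start group at 99028259 stood at 74.0 ± 1.96 by -log10 q, beside 73.2 ± 2.12 for the strongest region. The strongest row of that intronic region reached the group's window in replicate 4 alone.

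**Figure D4:**
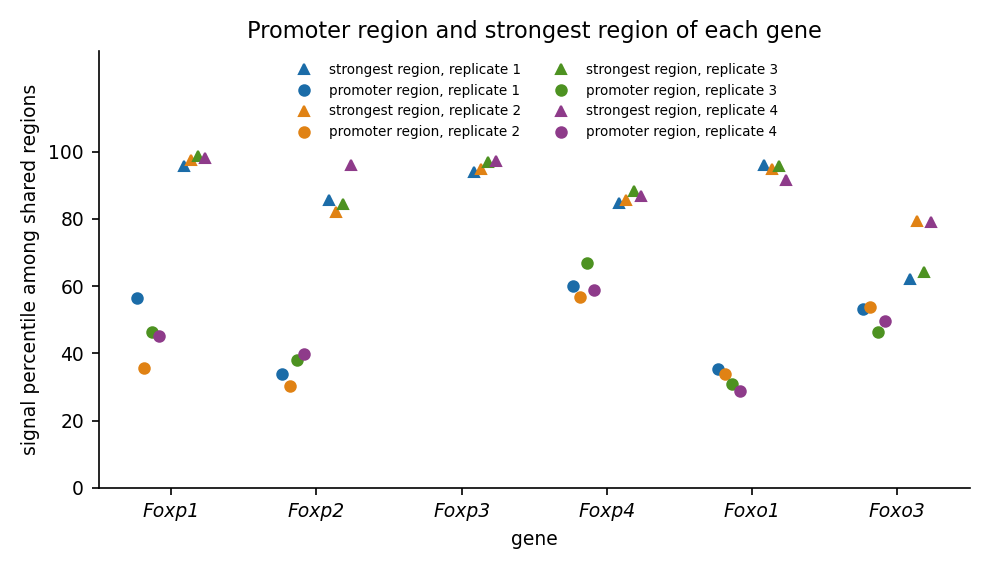
Signal percentile among shared regions (y axis) of the promoter region (circles) and the strongest region (triangles) of each gene (x axis), with 1 point per replicate. The promoter point of Foxp1 is its most upstream start, and that of Foxo1 a region with its median summit in an intron. Foxp3 has none open in all 4. Triangles, picked as the highest by this value, lie above circles of the same colour in every gene with both; by -log10 q the order turned at Foxp4 and Foxo3.

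Motif strings were counted within 50 bp of the median summit of the 122 shared regions. A forkhead string lay at 4 summits (3.28%), 2 at Foxp1 and 2 at Foxp4, beside 0.882% of all shared regions. With each replicate's own summits the share was 2.46% ± 0.669 beside 0.883% ± 0.0147, and 1.64% at its lowest. No FOXO summit had one. These 4 sites are a description, too few for a comparison of shares. The AP-1 string was the most frequent, at 26 summits (21.3%, beside 21.8% of all shared regions), of which 16 were at Foxp1. With each replicate's own summits it lay at 24.6% ± 1.34 beside 21.6% ± 0.118, so whether it was below or above the genome turned with the summit used. Among distal regions alone, 111 of the 122, the AP-1 string lay at 22.5% of median summits, beside 26.2% of distal shared regions of the genome. The ROR string, a half-site of nuclear receptors, lay at 10 (8.20% beside 6.27%). RUNX lay at 12 (9.84% beside 12.8%), NFAT at 10 (8.20% beside 9.68%), ETS at 8 (6.56% beside 10.2%) and CTCF core at 7 (5.74% beside 11.7%). TCF lay at 4 (3.28% beside 2.41%) and STAT at 3 (2.46% beside 3.52%). NF-kB and CRE strings lay at none of the 122, beside 0.684% and 0.470% of all shared regions. None of the 11 strings was found at 54 summits (44.3%, beside 40.7%).

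**Figure D5:**
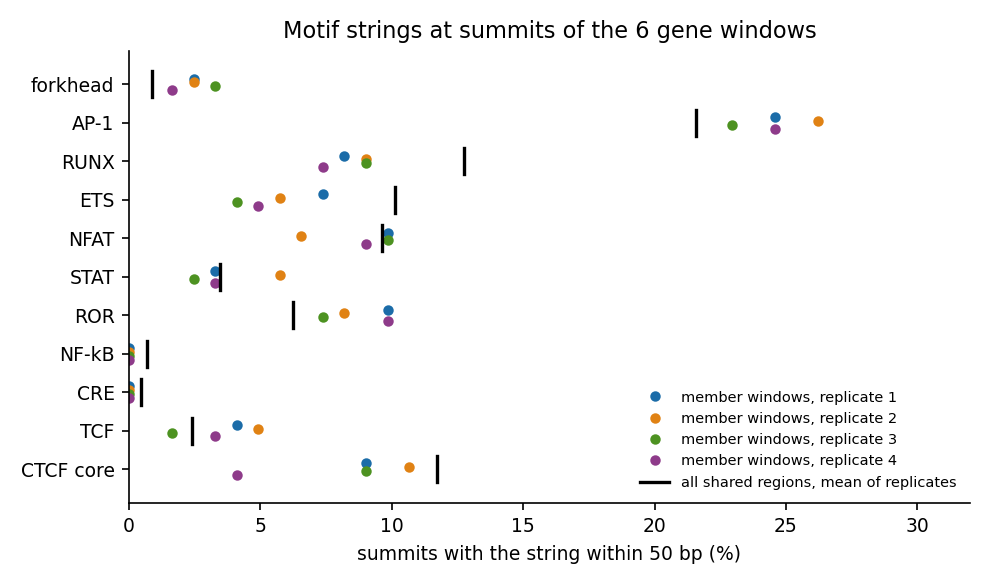
Share of summits with each string within 50 bp (x axis, percent) in the 6 windows by replicate (points) and in all shared regions as the mean of the 4 replicates (black bars). The forkhead, AP-1 and ROR points lie above their bars in all 4 replicates, and the RUNX, ETS, CTCF core, NF-kB and CRE points below. The NF-kB and CRE points are at 0. The forkhead points rest on too few summits for a comparison of shares.

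Other genes of the same family and pathways were read at their promoters in the same way. Of 38 other forkhead genes 24 were open (63.2%, beside 62.2% of all coding genes), with a median of 5.11 shared regions per 100 kb. The other FOXO genes, Foxo4 and Foxo6, were among the 24, with 3.76 and 4.99 shared regions per 100 kb, beside 10.8 at Foxo1 and 4.10 at Foxo3. The forkhead genes with most shared regions per 100 kb outside the 6 were Foxh1 (11.8), Foxs1 (10.9) and Foxr1 (10.2), and none of these had a promoter open in all replicates, being open in 0, 3 and 0. The next were Foxa3 (9.98), open in all 4, Foxl1 (9.74), open in 0, and Foxc2 (9.73), open in all 4. The 24 open ones were Foxa1, Foxa3, Foxb2, Foxc1, Foxc2, Foxd1, Foxd2, Foxd4, Foxe1, Foxe3, Foxf1, Foxf2, Foxi3, Foxj1, Foxj2, Foxj3, Foxk1, Foxk2, Foxl2, Foxm1, Foxn2, Foxn3, Foxo4 and Foxo6. Also not open were Foxa2, Foxb1, Foxi1, Foxi2, Foxn1, Foxn4, Foxq1 and Foxr2, with no replicate open, and Foxd3 was open in 3.

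All 14 genes of the pathway that controls FOXO proteins were open, beside 62.2% of all coding genes, with a median of 7.799 shared regions per 100 kb, beside 5.21 over all coding genes. Among them Pik3r1, the regulatory subunit of PI3-kinase, had 20 shared regions and Pik3cd, its catalytic partner in leukocytes, 17, while Skp2, a ubiquitin ligase subunit, had 5. Of 12 FOXO targets in T cells 11 were open (median 10.1), with 19 shared regions at Ctla4, the inhibitory receptor, and 18 at Il7r, the interleukin 7 receptor. Ccng2, a cyclin gene, had 8. All 16 partners and targets of FOXP3 were open (median 8.75), led by Runx1, its binding partner, with 29 shared regions and Il2ra, the interleukin 2 receptor alpha chain, with 26. The fewest were 7 each at Tnfrsf18 (GITR) and Lrrc32 (GARP). The Treg markers Ikzf2, Il2ra, Ctla4, Tnfrsf18, Lrrc32 and Nt5e were thus open at the promoter in all 4 replicates, and of that list of 7 only Foxp3 was not.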

How the data were processed

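ATAC-seq peak lists of 4 Th17 replicates, on mm10 per the labels, were used. The authors' deposited signal value and their deposited -log10 p and -log10 q values describe each peak. The lists stop at a -log10 q of about 1.00. Names of the aligner and peak caller were not given in the sources used here. Regions of chromosomes 1 to 19, X and Y were merged and annotated with GENCODE M21 in Python 3.11.15 with numpy 2.4.6, after the interval code was tested on simulated intervals. TSS came from the basic annotation, and figures were drawn with matplotlib 3.10.9. With 1 group there is no contrast, so no test was run, and likeness of genes was the Euclidean distance in regions per 100 kb over the 4 replicates.

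The members, gene lists, elements and strings were chosen with earlier results of these data known. Named genes were all 6 members, coding genes with an open promoter in a member window, the forkhead genes with the densest windows, list members with the most and fewest shared regions or a closed promoter, and the 2 most like genes per member. Described regions were the promoter regions, the 2 best by signal per gene and every region at Foxp3; others named here, by -log10 q or by a forkhead string, were picked after their values were seen. Some list members that this rule names are not reported here.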

Additional observations from a re-analysis of the deposited data

Results flagged for a closer look

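In 2 of 37 quantities with 4 replicates, 1 replicate was set apart from the other 3 by Dixon's ratio of the gap to the range. By chance about 1 in 20 such groups is set apart in this way, a rate that does not hold for tied counts. The Foxo1 window held 26 regions in replicate 4, while replicates 1 to 3 had 24 each. With these 3 counts tied, any other count in replicate 4 would have been flagged, so the flag does not show a large difference. The second strongest Foxp1 region, past the gene end, stood at percentile 89.7 in replicate 3 and at 97.3 to 98.5 in the others.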

How the results depend on the processing

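When regions needed a -log10 q of 10 or more, and when 3 or 2 replicates sufficed, counts kept within 1.5 times their value, except for the Foxp3 elements. With the 50000 regions of highest signal of each replicate, shared regions fell to 62 in all windows, 34 at Foxp1, 9 at Foxp4 and 6 at Foxo1, and the Foxo1 promoter was lost, leaving 4 open. Without flanks, Foxp2 kept 1, Foxp3 3, Foxp4 7 and Foxo1 12, and with 10 kb flanks Foxp4 8 and Foxo1 13. With summits chained within 100 bp Foxp4 had 9. Foxp3 elements rose from 1 to 2, by the edge of CNS0, with at least 3 replicates, with at least 2, with merged regions, and without replicate 1 (leave-one-out range 1 to 2). Foxp3 joined the open promoters, making 6, within 2 kb, with merged regions and, in a setting chosen after seeing the data, with the comprehensive annotation. Leaving out each replicate gave 123 to 129 shared regions and 5 open promoters. By -log10 q the strongest regions stood at percentile 73.2 (Foxp1), 62.0 (Foxp2), 77.2 (Foxp3) and 78.9 (Foxp4); the cause was not tested. Motif shares at 25 and 100 bp also changed, as wider windows hold more letters (all shared regions in brackets). Forkhead had 1.64% (0.413%) and 4.10% (2.01%), AP-1 10.7% (11.5%) and 31.97% (29.7%), and RUNX 4.92% (6.40%) and 18.03% (21.6%). ETS had 1.64% (4.90%) and 13.1% (17.8%), NFAT 4.92% (4.20%) and 16.4% (18.8%), and STAT 0.820% (1.44%) and 9.84% (7.12%). ROR had 4.92% (3.15%) and 13.1% (12.2%), CTCF core 3.28% (4.25%) and 14.8% (19.5%), and TCF 7.38% (4.72%) at 100 bp. Below all shared regions at 50 bp, AP-1 and STAT were above them at 100 bp, and NFAT at 25 bp. No paired analysis was possible because there is 1 group.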
